A study of Mus musculus with 8 samples.

Results

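The mitochondrial respiratory chain and the ATP synthase were represented by 68 genes, measured with 95 of the 20794 probes on the array and forming part of 9030 named genes. Members were chosen by symbol alone: probes whose single annotated symbol begins with Nduf followed by a, b, c, s or v and a digit, Sdha to Sdhd, symbols beginning with Uqcr, Cox followed by a digit from 4 to 8, Cyc1, Cycs, and symbols beginning with Atp5. The rule uses symbols and no measured value, although it was proposed with earlier results of these data known. The members fell into complex I with 26 genes, complex II with 4, complex III with 8, complex IV with 15 and complex V with 15. No probe used here carried the symbol Cycs, so the mobile carrier cytochrome c was not analysed here. All 68 members had values in both dye orientations of 3 mice and were tested.

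The values came from 2-colour cDNA arrays of liver RNA from male Abcb4-/- mice, strain Balb/cByJ, aged 17 weeks. Each array set RNA of 1 mutant mouse against a pool of liver RNA from wild type males of the same strain and age, which the sample labels describe as 4 animals and the labelling protocol as 6. There were 8 arrays of 4 mice, with the mutant in Cy5 on 1 array of each mouse and in Cy3 on the other, and the question was how loss of Abcb4, which moves phosphatidylcholine into bile, alters liver gene expression. The 2 columns of mouse 1 summed to 0 within 0.012 at every probe, so they were taken as copies with turned sign and mouse 1 was left out, which left 6 arrays of 3 mice.

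Respiratory complexes sit in the inner mitochondrial membrane. Complex I and complex II pass electrons from NADH and succinate to ubiquinone, complex III passes them to cytochrome c and complex IV to oxygen, while complexes I, III and IV move protons whose return through complex V drives ATP synthesis. Hepatocytes are rich in mitochondria and use this ATP for synthesis and transport. All members analysed here are encoded in the nucleus, and none of the listed subunits encoded in mitochondrial DNA matched a gene tested.

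All values are log2 ratios, taken here as mutant over pool, a direction not stated in the sources used here. The constant carried by each array was between -0.58 and -0.386 on the Cy5 arrays used and between 0.575 and 0.619 on the Cy3 arrays. The copied column of mouse 1 carries the opposite sign under the Cy3 label. These show that Cy3 columns were turned relative to Cy5 columns, but not whether mutant or pool is the numerator. A positive value is read as higher in the mutant only under the direction taken. Ratios give no level of expression, so neither the abundance of a member nor the labelled tissue could be checked. The targeted gene had a mean log2 ratio of -0.27 ± 0.33 (SD, n = 3 mice; adjusted p = 0.53, limma) with values from -1.20 to 0.07 over the 6 arrays, and so did not check the genotype label. The pool was the only control, and its own spread among wild type mice is not in any p-value given here.

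The members' names come from the annotation of the platform, and separate probes of the same member did not correlate. Of the members, 19 had more than 1 probe tested, which formed 32 pairs of probes. The 2 mean ratios had the same sign in 18 of the 32 pairs, and the correlation across pairs was -0.02 (a description, since pairs of 1 gene share probes and all share arrays). The median gap within a pair was 0.11. Ratios near 0 can fail to correlate even between probes of 1 gene. The median size of a member's mean was 0.07, and the median SD over mice was 0.12. The same correlation over all features was not computed, so whether the names are right was not tested. Every value below is the value of probes that carry a member's name. For close paralogs such as Cox6a1 and Cox6a2, the spotted cDNA may also bind the other transcript, so those genes are uncertain.

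**Figure D1:**
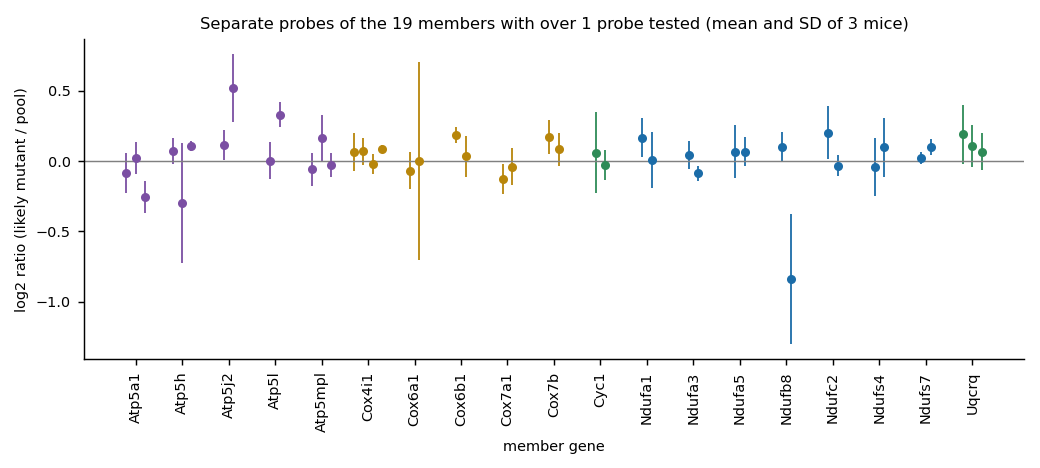
Mean log2 ratio (mean of 3 mice) of separate probes annotated to the same member, for the 19 members with more than 1 probe tested. The points spread around 0, the correlation over the 32 pairs of probes was -0.02, and Ndufb8 has 1 probe at 0.10 and the other at -0.84.

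The promoters of the members were searched for 4 motifs, which the choice of members did not use. RefSeq promoters (build GRCm38.p6, from 250 bases before to 50 bases after the start) matched 56 of the 68 members, with 61 promoters. The core of the NRF1 site, GCGCATGC on either strand, was present in 8 of these 61 (13.1%), compared with 2.71% of all 32851 promoters of that length and 4.42% of the 9282 promoters of genes tested. NRF1 is a transcription factor known to act on many nuclear genes of respiration. The ETS core bound by GABP, CCGGAAG on either strand, was in 15 of 61 (24.6%), compared with 8.86% of all promoters and 15.2% of those tested. The YY1 core, AAGATGGC on either strand, was in 9 (14.8%), compared with 2.75% and 3.91%. The short site of the estrogen-related receptors (ERR), AAGGTCA on either strand, was in 7 (11.5%), compared with 4.72% and 3.44%. These are matches of letters, not bound sites, and each motif was searched on its own, so that 1 promoter can count for several.

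The 4 promoters below were chosen because they hold an NRF1 core within the 100 bases before the start, with the match in capitals and each read 5′ to 3′ along the gene's strand. The match in Atp5k is a palindrome that fits on both strands with 2 overlapping matches. Their coordinates are chr5:108434400-108434499 on the minus strand for Atp5k, chr15:82354292-82354391 on the minus strand for Ndufa6, chr2:36049339-36049438 on the minus strand for Ndufa8 and chr4:140961171-140961270 on the plus strand for Sdhb.
Atp5k: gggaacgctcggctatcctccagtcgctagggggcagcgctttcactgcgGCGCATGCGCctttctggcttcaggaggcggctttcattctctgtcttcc
Ndufa6: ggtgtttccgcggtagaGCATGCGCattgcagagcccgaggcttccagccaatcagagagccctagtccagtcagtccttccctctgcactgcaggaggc
Ndufa8: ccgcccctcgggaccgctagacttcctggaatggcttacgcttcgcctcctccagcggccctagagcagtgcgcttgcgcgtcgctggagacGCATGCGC
Sdhb: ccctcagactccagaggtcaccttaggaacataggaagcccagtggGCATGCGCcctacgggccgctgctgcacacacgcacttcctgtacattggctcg

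The same 100 bases are shown for Ndufb3 (chr1:58586297-58586396, plus strand) and Atp5j2 (chr5:145191542-145191641, minus strand), since these members had the highest mean ratios. None of the 4 motifs is in these 100 bases, while the 300 bases searched for Atp5j2 hold a YY1 core outside them.
Ndufb3: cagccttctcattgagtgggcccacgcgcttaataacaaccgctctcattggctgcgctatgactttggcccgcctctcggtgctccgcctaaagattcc
Atp5j2: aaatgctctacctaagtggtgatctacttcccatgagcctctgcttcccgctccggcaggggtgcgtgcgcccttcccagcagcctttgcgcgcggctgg

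The ratios of members with and without a motif were compared as medians. The median log2 ratio of the 8 members with an NRF1 core was 0.07, compared with 0.02 for those with a promoter and no core. The corresponding medians were 0.01 and 0.04 for the ETS core, -0.01 and 0.04 for the YY1 core, and 0.01 and 0.03 for the ERR site. No test was made of these differences.

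No member passed the threshold between mutant liver and the wild type pool. At an adjusted p under 0.05 (limma's moderated test of 3 mouse means against 0, adjusted over 16796 features), 0 of 68 members were called, against 56 features or 0.333% of all. At an unadjusted p under 0.05, 3 members (4.41%) had a positive mean, against a background of 6.71%, and 1 (1.47%) had a negative mean, against 3.21%. In both directions the members' share was at or below the background. In liver RNA, a different share of a cell type and a different amount of RNA per cell cannot be told apart.

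The members' mean ratios ran from -0.37 to 0.32, which is at most a 1.29-fold difference. Their median was 0.03, with 44 of 68 (64.7%) above 0, and the median of all features was 0.02, with 59.5% above 0. The count was 24 of 68 with the sign of all arrays turned and 42 of 68 with the columns of the Cy3 arrays turned. The latter setting undoes the turning of the Cy3 columns, so its means have the sign of the difference between orientations. After each array was centred on its median, the members' median was -0.00 and 33 of 68 were above 0. The sign of the small positive median thus depended on the centring of the arrays.

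The precision of these ratios sets what the arrays could show. The median SD of a member over the 3 mice was 0.12, as for all features, and the median distance from its mean to either end of the 95% confidence interval was 0.18. The interval lay within 0.5 on either side of 0 for 65 of 68 members (95.6%, compared with 94.1% of all features), and within 1 on either side for all 68. The 3 members whose interval reached past 0.5 in size were Atp5j2 (0.12 to 0.51), Ndufb3 (0.13 to 0.51) and Ndufb8 (-0.60 to -0.14). A 2-fold difference, which is 1 on the log2 scale, lay outside the interval of every member. These intervals come from 3 mouse means, in which probes and orientations were averaged, and do not include the pool's own spread. One probe of Ndufb8 alone had a mean of -0.84 ± 0.46 (SD, n = 3).

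**Figure D2:**
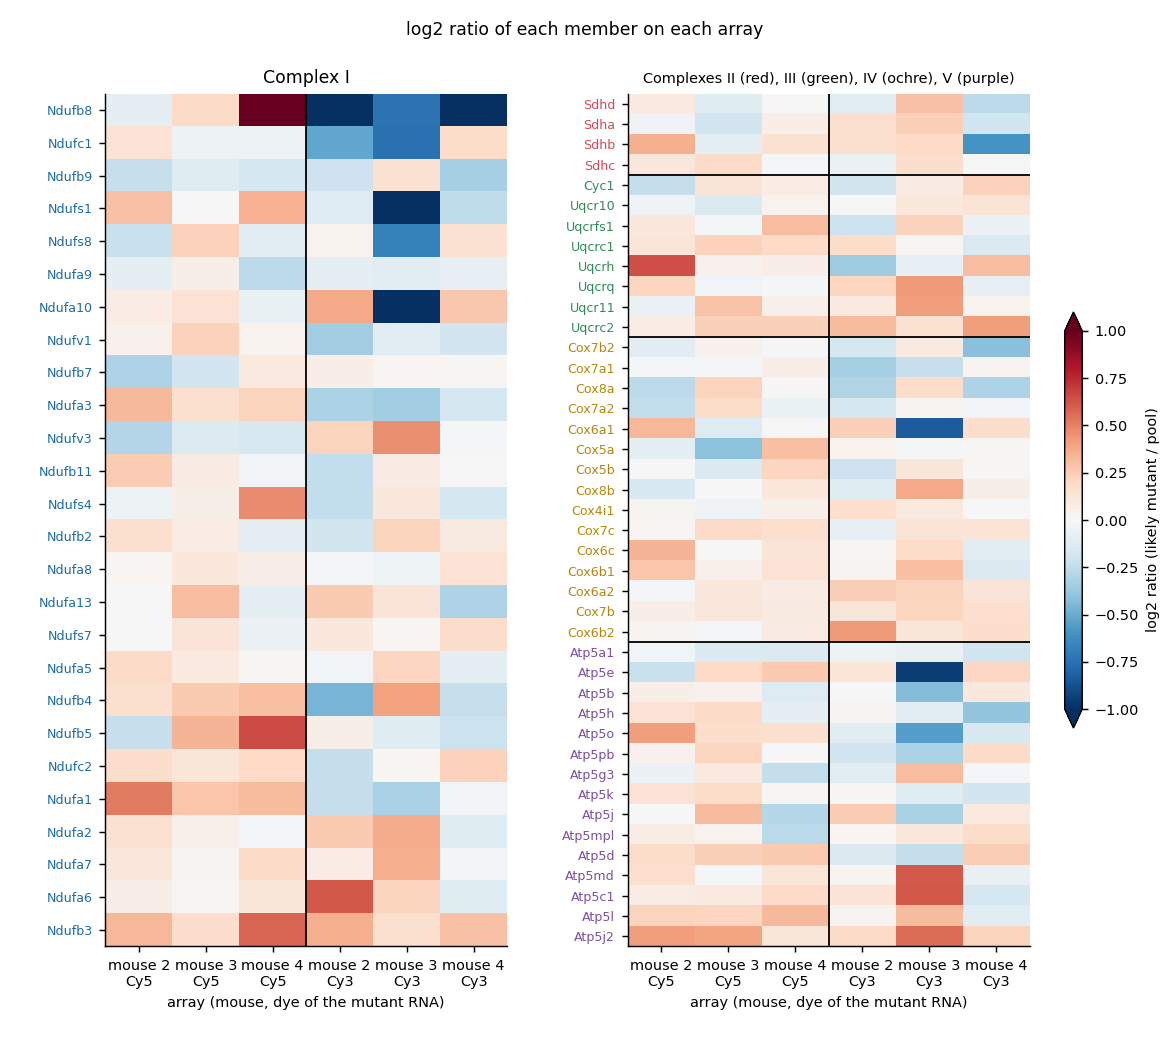
Log2 ratio (taken as mutant over pool) of the 68 members in rows, ordered by complex, on 6 arrays in columns, with colours that saturate at 1 in size. Most cells are pale, and the deep cells lie mainly in Ndufb8 (-1.65 to 1.25) and on the Cy3 array of mouse 3, where Ndufa10 was at -1.15.

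Complex I, the NADH dehydrogenase, had 16 of 26 members above 0 with a median of 0.04. Ndufb3, an accessory subunit of the membrane arm, was positive on all arrays. It measured 0.33 and 0.36 on the Cy5 and Cy3 arrays of mouse 2, 0.17 and 0.16 on those of mouse 3, and 0.58 and 0.30 on those of mouse 4. Mouse 4 was highest and mouse 3 lowest, and the mean was 0.32 ± 0.14 (SD, n = 3), 1.25-fold, with an adjusted p of 0.23. Of its 6 values, 2 equalled a ratio of whole numbers up to 10, as spots near background can. Such values are called near background below. Other spots can also match such a ratio by accident, at a rate that was not estimated.

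Ndufb8, another accessory subunit of the membrane arm, had the lowest mean of the members with the columns as deposited, -0.37 ± 0.23 (SD, n = 3; adjusted p = 0.24). With the columns of the Cy3 arrays turned, which reflects the difference between orientations, its mean was 0.82, the highest of complex I. It was -0.24 without mouse 2 and -0.58 without spots near background. Its Cy5 arrays read -0.09, 0.19 and 1.25 in mice 2, 3 and 4, and its Cy3 arrays read -1.18, -0.74 and -1.65. The arrays of the 2 orientations did not overlap, and the mean changed from 0.45 on the Cy5 arrays to -1.19 on the Cy3 arrays. Other members, among them Ndufa1, Ndufa3 and Ndufs1, also had no overlap. The share of all features without overlap was not counted, but 14.2% differed between orientations at an unadjusted p under 0.05 (limma). One of the 2 probes of Ndufb8 carried its split, at -0.19, 0.12 and 2.36 on the Cy5 arrays and -2.47, -1.66 and -3.19 on the Cy3 arrays. Its other probe had a mean of 0.10 ± 0.11 (SD, n = 3). Leaving out spots near background removed 1 value of this other probe and 0 of the split probe. The mean of -0.58 thus rests more on the split probe.

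Among the core subunits of complex I that carry the electrons, none passed the threshold. Ndufs1, the largest subunit with iron-sulfur clusters, had a mean of -0.12 ± 0.33 (SD, n = 3), with its lowest value, -0.995, on the Cy3 array of mouse 3 and values from -0.25 to 0.35 on the others. Without mouse 3 its mean was 0.07, of the opposite sign. Ndufv1, which binds NADH, had a mean of -0.06 ± 0.11. Ndufs7, near the site where ubiquinone is reduced, had a mean of 0.06 ± 0.01, the narrowest spread over mice of all members, although its arrays ran from -0.06 to 0.17. Ndufs8 had a mean of -0.10 ± 0.12.

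Among the other accessory subunits, Ndufa6 had the next highest mean of complex I at 0.15 ± 0.17 (SD, n = 3), with 0.62 on the Cy3 array of mouse 2, and 0.06 without that mouse. Ndufc1 had the next lowest mean at -0.17 ± 0.23, with -0.52 and -0.75 on the Cy3 arrays of mice 2 and 3 and 0.18 on that of mouse 4, and its mean was -0.06 without mouse 3. Ndufa10 had a mean of -0.06 ± 0.39, which came from -1.15 on the Cy3 array of mouse 3. One of its 2 probes read -2.75 there, and all 4 values measured with that probe were ratios of small whole numbers. Without values near background, Ndufa10 had a mean of 0.25. Ndufb11 had a mean of 0.02 ± 0.05.

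Complex II, succinate dehydrogenase, links the citrate cycle to the chain, and none of its 4 genes moved beyond its spread. Sdha, the flavoprotein, had a mean of 0.01 ± 0.07, Sdhb, the iron-sulfur subunit, 0.03 ± 0.24, and the membrane anchors Sdhc and Sdhd 0.07 ± 0.10 and -0.02 ± 0.11 (SD, n = 3). Sdhb spread the most, with 0.35 and 0.16 in mouse 2, -0.09 and 0.20 in mouse 3, and 0.15 and -0.60 in mouse 4, Cy5 array first. The adjusted p of the 4 genes ran from 0.85 to 0.99 (limma). All 4 genes were above 0 in mouse 3 and none was in mouse 4, so the complex had no common direction.

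Complex III, which passes electrons from ubiquinol to cytochrome c, was the one complex with every mean above 0, 8 of 8, with a median of 0.10. None of its genes passed the threshold. Uqcrc2, a core subunit, was positive on the 6 arrays used, at 0.07 and 0.32 in mouse 2, 0.24 and 0.16 in mouse 3, and 0.24 and 0.42 in mouse 4, Cy5 array first. Its mean was 0.24 ± 0.08 (SD, n = 3), 1.18-fold, with an adjusted p of 0.30. The first column of mouse 1, labelled as Cy5 and not among these arrays, read -0.16, and the mean with it added was 0.14. Its partner core subunit Uqcrc1 had a mean of 0.10 ± 0.07, and the small subunit Uqcr11 0.14 ± 0.19, which was 0.03 without mouse 3. The lowest were the catalytic heme protein Cyc1 at 0.02 ± 0.20, with -0.24 and -0.18 in mouse 2 and values from 0.07 to 0.23 elsewhere, and Uqcr10 at 0.02 ± 0.06.

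The count of 8 of 8 moved with the settings. It was 6 of 8 after each array was centred on its median, 7 of 8 without mouse 3 and 6 of 8 without mouse 4. With the columns of the Cy3 arrays turned, which counts differences between orientations above 0, it was 3 of 8. In the first column of mouse 1, which the count did not use, 2 of the 8 genes were above 0 and the median was -0.07. That column is 1 hybridisation labelled as Cy5, whereas the means average both orientations. The other complexes had medians from 0.028 to 0.071 in it.

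**Figure D3:**
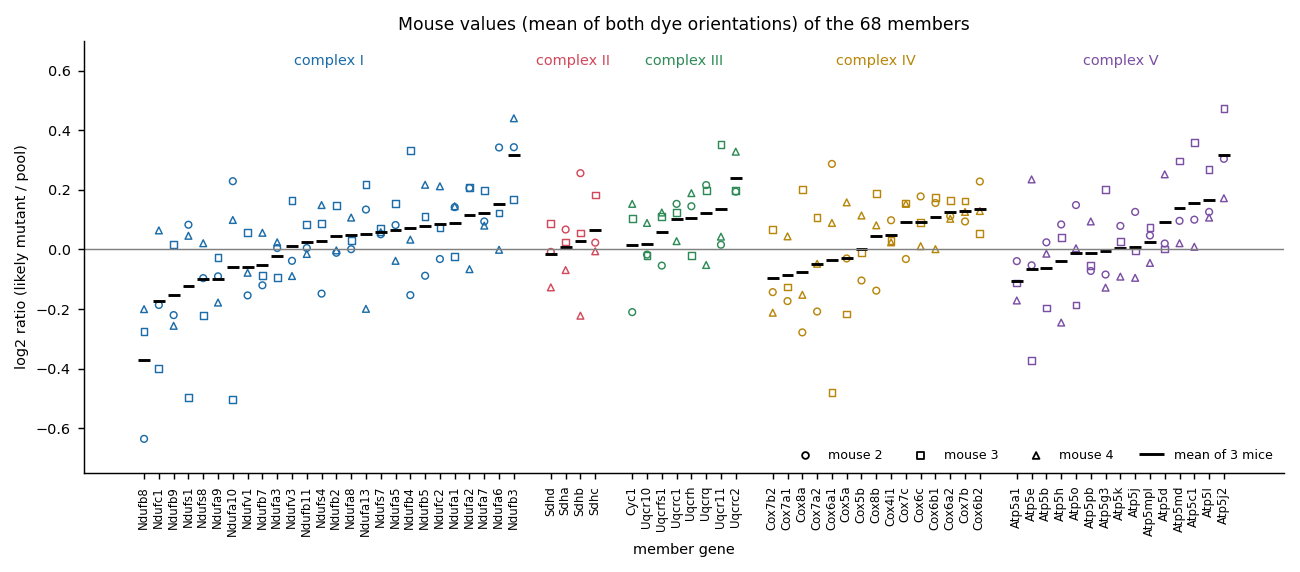
Log2 ratio (taken as mutant over pool, mean of both dye orientations) of each member in mouse 2 (circles), mouse 3 (squares) and mouse 4 (triangles), ordered by mean within each complex, with a bar at the mean of the 3 mice. The bars run from -0.37 (Ndufb8) to 0.32 (Atp5j2), those of complex III all lie above 0, and complex II is above 0 in mouse 3 and below 0 in mouse 4.

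Complex IV, cytochrome c oxidase, passes electrons to oxygen and had 9 of 15 members above 0 with a median of 0.04. Cox7b, a small subunit, was positive on all arrays, at 0.06 and 0.12 in mouse 2, 0.12 and 0.21 in mouse 3, and 0.09 and 0.17 in mouse 4, Cy5 array first. Its values were low but close together, with a mean of 0.13 ± 0.04 (SD, n = 3) and an adjusted p of 0.61 (limma). They are averages of 2 probes, and neither probe was positive on all arrays. One read -0.02 on the Cy5 array of mouse 4 and the other -0.03 on the Cy5 array of mouse 2. Its testis paralog Cox7b2 had the lowest mean of the complex, -0.10 ± 0.15. Cox4i1, the common isoform of a regulatory subunit, had a mean of 0.05 ± 0.04.

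Tissue isoforms of complex IV overlapped with their counterparts. Among the members of the heart and muscle type, Cox6a2 had a mean of 0.13 ± 0.03, Cox7a1 -0.09 ± 0.11 and Cox8b 0.04 ± 0.17 (SD, n = 3). Their liver-type counterparts Cox6a1, Cox7a2 and Cox8a had means of -0.03 ± 0.40, -0.05 ± 0.16 and -0.08 ± 0.25. Cox6b1 and its testis paralog Cox6b2 had means of 0.11 ± 0.10 and 0.14 ± 0.09. Cox6a1 had the widest SD of the members over the 3 mouse means, with array values of 0.33 and 0.24 in mouse 2, -0.13 and -0.83 in mouse 3, and 0.01 and 0.17 in mouse 4. The 3 muscle marker genes tested had means from -0.04 to 0.03.

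Complex V, the ATP synthase, had 8 of 15 members above 0 with a median of 0.01, and 5 of 15 above 0 after centring. Atp5j2, a subunit of the membrane part, had the highest mean of all members. It measured 0.42 and 0.19 in mouse 2, 0.39 and 0.56 in mouse 3, and 0.12 and 0.22 in mouse 4, Cy5 array first, all above 0. The mean was 0.32 ± 0.15 (SD, n = 3), 1.25-fold, with an adjusted p of 0.24. Its 2 probes gave 0.52 ± 0.24 and 0.11 ± 0.11, and the latter read -0.06 on the Cy3 array of mouse 4.

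Atp5a1, the alpha subunit of the catalytic head, was the one member negative on all arrays. It measured -0.03 and -0.05 in mouse 2, -0.15 and -0.08 in mouse 3, and -0.15 and -0.20 in mouse 4, Cy5 array first. The mean was -0.11 ± 0.07 (SD, n = 3; adjusted p = 0.70), and its 3 probes had means of -0.09, 0.02 and -0.26. The beta subunit Atp5b, which holds the catalytic sites with it, had a mean of -0.06 ± 0.12. Atp5l, a subunit of the membrane part, had a mean of 0.17 ± 0.09 and an adjusted p of 0.52. Atp5e, the epsilon subunit of the central stalk, had a mean of -0.06 ± 0.30, with -0.95 on the Cy3 array of mouse 3 and 0.21 and 0.26 in mouse 4. Atp5g3, 1 of the genes of the proton-carrying ring, had a mean of -0.00 ± 0.18.

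Counted over arrays, 4 members (5.88%) were positive on all 6, against 6.1% of all features, and 1 (1.47%) was negative on all 6, against 0.905%. The 4 were Atp5j2, Cox7b, Ndufb3 and Uqcrc2, and the 1 was Atp5a1. For Atp5j2, Cox7b and Atp5a1 the common sign held for the average of their probes, not for every probe. These shares were near the background. With the columns of the Cy3 arrays turned, the means of the 4 were -0.01, -0.04, 0.05 and -0.06. Values of 1 sign on all arrays must cancel under this turning, so these means are no check of the 4 members.

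The ratios of all features differed between the dye orientations, and those of the members with them. The mean of the Cy5 arrays had a member median of 0.08 with 50 of 68 above 0 (73.5%, compared with 72.6% of all features). The mean of the Cy3 arrays had a member median of 0.01 with 36 of 68 above 0 (52.9%, compared with 46.6% of all features). The median of the difference, Cy5 minus Cy3 within a mouse, was 0.06 over members and 0.08 over all features, and -0.01 over members after each array was centred on its median. Complex I had 21 of 26 members above 0 on the Cy5 arrays (80.8%, median 0.09) and 12 of 26 on the Cy3 arrays (46.2%, median -0.07), against the 72.6% and 46.6% of all features.

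The difference between orientations was tested in the same way over 3 mice. At an adjusted p under 0.05, 0 of 68 members were called (limma), against 26 features or 0.155%. At an unadjusted p under 0.05 there were 6 members (8.82%), against 14.2% of all features. These were Atp5o, Ndufa1, Ndufa3, Ndufb8, Ndufs1 and Ndufv3. Ndufb8 differed by 1.64 ± 1.09 (SD, n = 3, adjusted p = 0.12). It passed the threshold without mouse 2 (adjusted p = 0.0143, limma), where 398 of 16845 features did. It also passed without spots near background (adjusted p = 0.0124, limma), where 42 of 9812 features did. That filter removed 1 value of its probe with a difference of 0.08 and 0 of its probe with 3.20. The adjusted p of Ndufb8 was 0.298 both without mouse 3 and with each array centred on its median (limma). With a variance trend and robust estimation, the lowest adjusted p of any member was 0.419 (limma). Ndufs1 differed by 0.67 (adjusted p = 0.14) and Ndufa1 by 0.57 (adjusted p = 0.17). Ndufa3 differed by 0.51, higher on the Cy5 arrays. Atp5o, which forms part of the stator of complex V, differed by 0.53, but 1 of its 2 probes had no value on the Cy5 array of mouse 4, and the probe measured on all arrays differed by 0.13. Ndufv3 differed by -0.42, higher on the Cy3 arrays, followed by Cox6b2 at -0.21, Ndufb7 at -0.17, Ndufa6 at -0.17 and Atp5mpl at -0.16.

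**Figure D4:**
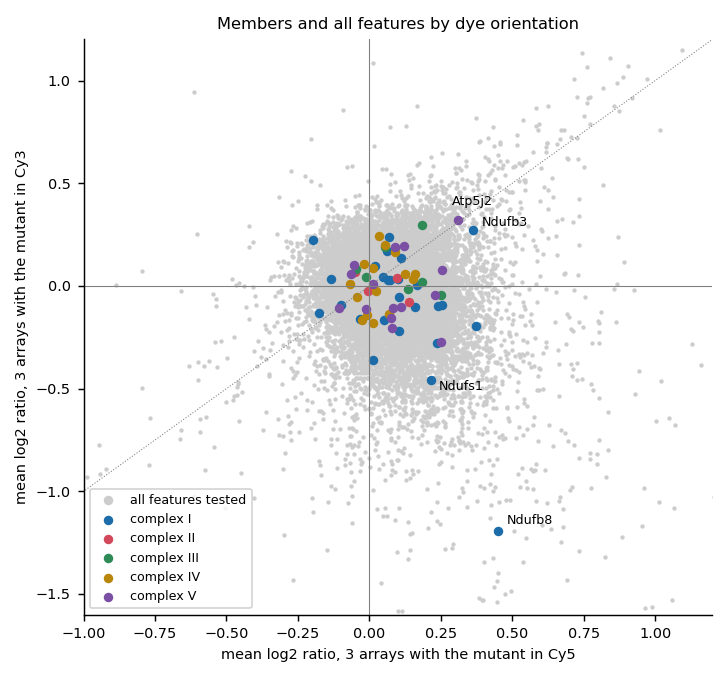
Mean log2 ratio on the 3 Cy5 arrays against that on the 3 Cy3 arrays, for the 68 members (coloured by complex) and all 16796 features (grey), with the line of equal values dotted; 29 features lie outside the axes. Members lie inside the grey cloud, apart from Ndufb8 at 0.45 and -1.19.

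Arrays were also compared in how they ordered the members. Over the 68 members, arrays of different mice with the same dye correlated by 0.19 on average (from 0.02 to 0.47, 6 pairs), and arrays of different mice with exchanged dyes by -0.07. The 2 arrays of 1 mouse correlated by -0.18 on average (from -0.44 to 0.01, 3 pairs). Over all features the 3 averages were 0.23, -0.02 and -0.01. These are descriptions across genes, which share arrays and are not independent.

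By mouse, the member medians were 0.02, 0.07 and 0.03 in mice 2, 3 and 4, with 39, 47 and 42 members above 0. The medians of all features were -0.01, 0.07 and 0.02, close to those of the members in each mouse. The spread of members was widest on the Cy3 array of mouse 3, with an SD of 0.38, compared with 0.15 to 0.28 on the other arrays. All features had their widest SD on the same array, 0.44. Of the members' values, 13.4% were ratios of small whole numbers, compared with 11.8% of all values.

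Closest in pattern to the median member over the 6 arrays were Snx10, Icam2 and Ralgps2, with root mean square distances of 0.03 each. The nearest members were Sdhc at 0.07, Ndufa5 at 0.08 and Cox4i1 at 0.09. The median member stayed between -0.018 and 0.105 on the 6 arrays, so this distance picks genes with ratios near 0.

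The genes around the chain were likewise without a call. Over 6 lists, covering assembly factors, coenzyme Q synthesis and electron entry, carriers and uncoupling, regulators of mitochondrial biogenesis, the citrate cycle with pyruvate dehydrogenase, and antioxidant enzymes, 105 of 153 listed genes were tested. None passed the threshold, 58 were above 0 (55.2%) and the median was 0.02, as for all features. At an unadjusted p under 0.05, 6 had a positive mean (5.71%) and 1 a negative mean (0.952%), both below the shares over all features given above.

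Of the assembly factors, 28 of 46 were tested with 15 above 0. Cox20, needed to build complex IV, had a mean of 0.26 ± 0.08 (SD, n = 3; adjusted p = 0.26), and Tmem70, needed to build complex V, -0.61 ± 0.62 (adjusted p = 0.36), which was -0.25 without mouse 3. Of the coenzyme Q and electron entry genes, 7 of 15 were above 0, led by Coq10b at 0.26 ± 0.31 and Coq3 at 0.15 ± 0.10, which were 0.09 and 0.10 without mouse 2. Of the carriers, 7 of 14 were above 0, with the mitochondrial pyruvate carrier Mpc1 at 0.24 ± 0.09 and the dicarboxylate carrier Slc25a10 at 0.22 ± 0.14, the latter 0.15 without mouse 2.

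The regulators had 12 of 21 above 0 with a median of 0.02. Mterf1a, a factor of mitochondrial transcription, had a mean of 0.19 ± 0.12 (0.13 without mouse 3) and the helicase Twnk -0.18 ± 0.16 (SD, n = 3). In the citrate cycle list 10 of 18 were above 0, with citrate synthase Cs at 0.13 ± 0.14 (0.05 without mouse 4) and Idh3b at 0.10 ± 0.08. Among the antioxidant enzymes 7 of 9 were above 0, the median was 0.06, and Gstk1 and Sod2 had means of 0.26 ± 0.18 and 0.14 ± 0.09. The adjusted p of Gstk1 was 0.38 (limma), and its mean was 0.16 without mouse 3.

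Of the marker genes of 10 cell types, 26 of 41 were tested, none passed the threshold and their means ran from -0.19 to 0.81. Of the 4 hepatocyte markers tested, 1 was above 0 and the median was -0.03. The 4 cholangiocyte markers had a median of 0.09, with Krt19 at -0.07 and Krt7 at 0.81 ± 1.10 (SD, n = 3). The value of Krt7 came from 3.96 on the Cy3 array of mouse 2, and its mean without that mouse was 0.18. The medians were 0.11 for the 3 markers of stellate cells and fibroblasts, with Col1a1 at -0.08, and 0.15 for the 3 of endothelium. They were -0.12 for the 2 markers of red blood cells and 0.06 for the 3 of white fat. The 1 macrophage marker tested, Clec4f, had a mean of -0.08, and the 1 lymphocyte marker, Cd3e, 0.06. The brown fat markers Ucp1 and Cidea had means of -0.08 and 0.01. The part of cell composition in the members' ratios was not tested.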

How the data were processed

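The authors' deposited table holds 1 value per probe and array on a log2 scale, read from the values. Scanner type, background treatment, normalization, centring and sign were not given in the sources used here. Medians of the 6 columns used ran from -0.06 to 0.081. Values above 15 in size were left out as placeholders, and 0 columns belonged to no sample. Of 20794 probes, 12771 carried 1 annotated symbol, 0 several and 8023 none; all 12771 matched the GRCm38.p6 table by Entrez identifier, with 0 symbols changed. Probes were averaged by symbol per array (17053 features, 16796 with both orientations in mice 2, 3 and 4). Each mouse entered as the mean of its 2 arrays. Means, and separately Cy5 minus Cy3 differences, were tested against 0 with limma 3.58.1 in R 4.3.3 (lmFit, eBayes, two-sided, Benjamini-Hochberg, threshold 0.05), after the script was tested on simulated data. The number of arrays limits the precision, and the pool's own spread is not included.

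Members and lists were chosen with earlier results of these data known. Named members were, by rule, those past the threshold, the 2 highest and 2 lowest means per complex (all of complex II), the 5 extremes of orientation difference and of SD at each end, paralog groups, members of 1 sign on all arrays and, per list, the 2 genes of lowest p. Ndufv1, Ndufs8, Uqcrc1, Atp5b and the marker genes were named outside this rule, for their roles. Alternatives covered centring, scaling, direction, orientation, mice, probes, missing values, variance model and spots near background.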

Additional observations from a re-analysis of the deposited data

Results flagged for a closer look

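Of 50 screened items (members named by rule, array medians and SDs by complex and over all members), 3 had 1 array far from the other 5 by Dixon's criterion, which chance meets in about 1 in 20 groups. Atp5mpl, a small protein of the ATP synthase, read -0.27 on the Cy5 array of mouse 4 and between 0.02 and 0.18 on the others. Ndufa10 read -1.15 on the Cy3 array of mouse 3 and between -0.07 and 0.38 on the others, with the low value coming from 1 probe at -2.75. The SD of complex V was 0.46 on the Cy3 array of mouse 3 and between 0.13 and 0.20 on the others.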

How the results depend on the processing

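No member passed the threshold between mutant and pool under any alternative run, with the lowest adjusted p of a member between 0.0676 (limma, single probes) and 0.614 (without mouse 2). The median member ratio of 0.029 was -0.002 with centred arrays, -0.029 with all signs turned and 0.075 on the Cy5 arrays alone. The median difference between orientations of 0.063 was -0.012 with centred arrays and -0.063 with all signs turned. Of the differences between orientations, leaving out 1 mouse gave between 0 and 1 member past the threshold. The 1 was Ndufb8 without mouse 2 (adjusted p = 0.0143, limma), against 398 of 16845 features. Leaving out spots near background also gave 1 of 44 members tested, Ndufb8 (adjusted p = 0.0124, limma), against 42 of 9812 features. Under the other alternatives no member passed, and the adjusted p of Ndufb8 was 0.298 with centred arrays and without mouse 3 (limma). Over all features, the 56 calls between mutant and pool ranged from 0 without mouse 4 to 140 without spots near background, with 1 without mouse 2, 24 without mouse 3 and 26 with centred arrays; 20 of those 26 were positive, compared with 45 of 56. The 26 calls between orientations ranged from 0 without mouse 3 to 398 without mouse 2. With all 6 arrays as separate values, a random effect of mouse and a term for the dye, 0 members and 132 features were called.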

Other observations

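The left-out mouse gave 1 independent hybridisation. In its first column the member median was 0.045, with 42 of 68 members above 0, and 55.8% of all features were above 0. Over members, this column correlated by 0.28 on average (from 0.17 to 0.36, 3 pairs) with the Cy5 arrays of the other mice and by -0.12 with their Cy3 arrays, as a description across genes.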
